A study of Mus musculus with 12 samples.

Results

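The comparison set gut-draining mesenteric lymph nodes (mLN) against skin-draining peripheral lymph nodes (pLN) in germ-free (GF) mice, and asked how far the open chromatin of node stromal cells depends on the site of the node when no microbiota is present. The assay was ATAC-seq, in which a transposase cuts open DNA and the cut fragments are sequenced. The cells were non-endothelial stromal cells (SCs) sorted as CD45-CD24-CD31-Pdpn+, that is without the markers of blood cells, epithelium or endothelium and with podoplanin. The mLN-GF and pLN-GF groups held such cells from GF BALB/c mice of 6 to 10 weeks, with inguinal and axillary nodes among the pLN. The members were chosen by group label: all 3 mLN-GF libraries and the pLN-GF replicates 1 and 3, which were 5 of the 12 samples of the series, and all 42424 distinct peaks. The tissue labels of the pLN libraries call the nodes both skin-draining and mesenteric, and the titles, which name pLN, were followed. The values labelled pLN-GF replicate 2 were, at every peak, the average over the 5 other pLN libraries, and were left out. The mLN-SPF and pLN-SPF libraries (3 each, specific pathogen-free mice of 7 to 12 weeks) served as a second measurement of the same location difference. GF mice were derived by cesarean section at another institution than the one that bred the SPF mice and were then kept at either, and the methods name a CD90.1 line on the BALB/c background for SPF mice, so housing, colony and line cannot be told apart. Whether libraries came from separate animals was not stated. The paper's reporting summary says that at least 2 replicates of bulk sequencing came from independent experiments, without naming the libraries. The p-values therefore measure the spread between these libraries, which may in part be technical.

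Lymph node SCs build the scaffold on which lymphocytes, dendritic cells and lymph meet. T zone reticular cells, marginal reticular cells, perivascular cells and CD34+ adventitial cells differ in the chemokines, cytokines and matrix that they make. Mesenteric nodes arise in the mesentery, a derivative of the splanchnic mesoderm that also forms the gut wall, whereas skin-draining nodes arise near limb and body wall mesenchyme. Transcription factors of these fields, such as NK, T-box and homeobox proteins, often stay accessible or closed in adult fibroblasts according to body site. Open chromatin marks promoters and distal enhancers where such factors bind.

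Reference sequences are shown for 6 regions, 3 more open in mLN-GF and 3 more open in pLN-GF, because the results below turn on these peaks or on the motifs in them. All are the plus strand of GRCm38 (RefSeq assembly, from another mouse strain than BALB/c), 5′ to 3′, and were chosen after their values were seen. Capitals mark matches on either strand to 4 consensus motifs: AP-1 (TGANTCA), the CACC box of KLF factors (GGGTGTG), C/EBP (TTGCNNAA) and NF-kB (GGGNNTTCC). The Nkx2-3 stretch is the part of its promoter peak before the start site, chr19:43612120-43612324, and holds none of these 4 motifs. The Il33 region is the whole peak chr19:29973528-29973707, 21.7 kb past the Il33 start site. The Tcf7l2 region is chr19:55714031-55714260, within a peak 27.5 kb before the start site. The Cxcl9 stretch is the part of its promoter peak before the start site, chr5:92328080-92328227, with 2 NF-kB matches (the gene lies on the minus strand). The Tlr2 region is the whole peak chr3:83845276-83845529, 3.5 kb before the start site. The Ust region is chr10:8618750-8618979, within a peak 99.8 kb before the start site.
Nkx2-3: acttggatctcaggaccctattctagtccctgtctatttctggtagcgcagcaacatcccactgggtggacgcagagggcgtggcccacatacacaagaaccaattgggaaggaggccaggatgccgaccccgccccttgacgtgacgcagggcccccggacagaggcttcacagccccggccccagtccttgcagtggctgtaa
Il33: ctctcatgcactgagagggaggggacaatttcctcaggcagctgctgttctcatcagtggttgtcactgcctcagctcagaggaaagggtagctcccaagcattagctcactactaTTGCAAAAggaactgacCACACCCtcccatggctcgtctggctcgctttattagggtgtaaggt
Tcf7l2: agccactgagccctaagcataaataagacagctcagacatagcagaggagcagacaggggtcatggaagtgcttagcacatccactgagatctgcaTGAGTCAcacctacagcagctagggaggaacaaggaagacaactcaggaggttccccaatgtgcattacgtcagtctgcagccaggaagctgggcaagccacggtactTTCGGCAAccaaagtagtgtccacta
Cxcl9: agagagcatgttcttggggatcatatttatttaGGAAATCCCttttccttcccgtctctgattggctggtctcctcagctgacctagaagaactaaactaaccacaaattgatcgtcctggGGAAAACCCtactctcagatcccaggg
Tlr2: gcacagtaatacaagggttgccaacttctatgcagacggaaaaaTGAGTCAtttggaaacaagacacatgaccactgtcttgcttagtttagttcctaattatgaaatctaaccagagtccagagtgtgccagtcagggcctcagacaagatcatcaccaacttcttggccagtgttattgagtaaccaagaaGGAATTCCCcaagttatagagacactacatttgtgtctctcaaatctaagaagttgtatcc
Ust: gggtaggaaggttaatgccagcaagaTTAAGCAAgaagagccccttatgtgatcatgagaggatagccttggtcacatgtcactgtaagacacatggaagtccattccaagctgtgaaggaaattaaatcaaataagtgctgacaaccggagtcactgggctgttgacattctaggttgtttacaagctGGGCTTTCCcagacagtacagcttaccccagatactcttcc

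The GF libraries held 3702387 to 6804343 reads in peaks, with a median of 53 to 96 reads per peak. Values are RPKM (reads per kilobase of peak, relative to the size of the library), so levels of peaks of unlike width can be set side by side. Over all peaks the mLN-GF libraries correlated with r of 0.813 to 0.817 among themselves and the pLN-GF libraries with r = 0.892, whereas mLN-GF and pLN-GF libraries correlated with r of 0.451 to 0.669 (log2 values, n = 42424 peaks that share libraries). The first principal component of the 5 libraries held 69.5% of the variance and split the nodes. The mLN-GF libraries scored 75.7, 37.1 and 95 and the pLN-GF libraries -105.1 and -102.6, so mLN-GF replicate 2 stood nearest to the pLN side. Promoters of stromal genes were open in both groups: Pdgfra at 26.5 to 62.7 RPKM, Pdgfrb at 38.2 to 56.3 and Ltbr, the lymphotoxin beta receptor, at 36.4 to 45.0. The sort marker Pdpn had 7 peaks at 19.7 to 92.7 RPKM, none in its promoter and none differing between the nodes. Promoter peaks were absent for Ptprc, Cd3e, Spi1, Pecam1, Cdh5, Tie1, Epcam and Cdh1, while those of Kdr (15.2 to 23.2 RPKM) and Cd24a (31.4 to 38.3 RPKM) were present and called in neither direction.

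Differentially accessible regions (DARs) were peaks that changed 2-fold or more with an adjusted p under 0.05 on the log2(RPKM + 1) scale (limma across all peaks, Benjamini-Hochberg). Of 42424 peaks, 5588 (13.2%) were DARs. More were higher in mLN-GF, with 3629 peaks (8.55%), than in pLN-GF, with 1959 (4.62%). The libraries of the 2 groups did not overlap in 5586 of the 5588 DARs, against 48.8% of all peaks. Lack of overlap at a DAR named below therefore adds little to its call. The DARs higher in mLN-GF had a median log2 fold change of 1.83, and 1463 of them reached 4-fold and 206 reached 8-fold. The DARs higher in pLN-GF changed less, with a median of 1.40 in size, and 229 reached 4-fold and 29 reached 8-fold. In mLN-GF DARs the group mean was typically 32.7 RPKM against 8.0 in pLN-GF (medians over peaks), and in pLN-GF DARs 36.0 against 13.2 in mLN-GF. The nearest genes numbered 3523 of the 14679 with a peak, of which 2474 lay next to a DAR higher in mLN-GF, 1457 next to one higher in pLN-GF and 408 next to both kinds.

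The number of DARs depended on single libraries. Without mLN-GF replicate 3, 2523 peaks were higher in mLN-GF and 958 in pLN-GF. With 1 pLN-GF library left, the counts were 1999 and 316 (without replicate 1) or 1973 and 385 (without replicate 3), the lone library being assumed to vary like the others. Of the 5588 DARs, 1400 (1229 higher in mLN-GF, 171 in pLN-GF) stayed DARs without each GF library in turn. The same held for the 26 gene lists described below, of which 22 held DARs on the mLN-GF side and 22 on the pLN-GF side. Their pLN-GF counts fell by over 1.5 times in 22 lists without pLN-GF replicate 1, in 20 without pLN-GF replicate 3, in 16 without mLN-GF replicate 3 and in 6 without mLN-GF replicate 1, and their mLN-GF counts in 16, 19, 5 and 6 lists. Without mLN-GF replicate 2, 9 lists gained over 1.5 times on the pLN-GF side.

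The location difference lay mostly outside promoters. Promoter peaks, those within 1 kb of a start site, made up 30.1% of all peaks, but 161 mLN-GF DARs (4.44%) and 57 pLN-GF DARs (2.91%). Of all promoter peaks 1.71% were DARs, against 18.5% of intronic, 18.0% of intergenic and 15.8% of coding exon peaks. Introns held 1572 mLN-GF and 729 pLN-GF DARs, and intergenic sequence held 1701 and 1114. The pLN-GF DARs lay farther from start sites, at a median of 61.0 kb with 55.6% beyond 50 kb, than the mLN-GF DARs, at 33.1 kb with 38.8% beyond 50 kb. The median over all peaks outside promoters was 34.6 kb. The mLN-GF DARs were also narrower (median 307 bp) than the pLN-GF DARs (455 bp) and than peaks outside promoters (425 bp).

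Nkx2-3, a homeobox gene of the splanchnic mesoderm needed for spleen and gut lymphoid tissue, had the promoter with the largest gain in mLN-GF. Its promoter peak (chr19:43612120-43612503) measured 66.0, 71.6 and 48.2 RPKM in the mLN-GF replicates 1, 2 and 3 and 3.4 and 4.1 RPKM in the pLN-GF replicates 1 and 3. All mLN-GF libraries were high and both pLN-GF libraries were near closed, with a log2 fold change of 3.71 ± 0.39 (SE, adjusted p = 0.000202). A peak 12.3 kb before the promoter measured 32.1, 30.0 and 23.7 RPKM in mLN-GF and 1.9 and 2.9 RPKM in pLN-GF (3.13 ± 0.39, adjusted p = 0.000397). Of the 14 peaks within 100 kb of the Nkx2-3 start site, 4 were DARs and all 4 were higher in mLN-GF. The other pair lay at -49.0 kb (nearest to Got1, 4.20 ± 0.51) and at 32.7 kb (nearest to Slc25a28, 3.51 ± 0.53), while the promoters of Got1, Slc25a28 and Entpd7 in the same window measured log2 fold changes of 0.01, -0.14 and -0.06.

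Further gut and splanchnic mesoderm factors had promoters that were more open in mLN-GF, while the list as a whole lay near the background of 8.55% and 4.62%. It held 25 genes with 180 peaks, of which 22 peaks (12.2%) near 12 genes were higher in mLN-GF and 9 peaks (5.0%) near 6 genes in pLN-GF, with a median log2 fold change of 0.02 against -0.005 over all peaks. Tcf21, a basic helix-loop-helix factor of visceral mesenchyme, had a promoter peak at 49.2, 31.8 and 37.2 RPKM in mLN-GF and 4.8 and 5.9 RPKM in pLN-GF (2.64 ± 0.43, adjusted p = 0.0015). The promoter of Isl1, a LIM homeobox gene, measured 37.3, 26.6 and 41.9 RPKM against 5.6 and 4.7 (2.53 ± 0.47, adjusted p = 0.00334). That of Wt1, a zinc finger gene of the coelomic lining, measured 54.5, 46.1 and 60.9 RPKM against 17.5 and 14.3 (1.70 ± 0.26, adjusted p = 0.00104). In each of these 3 promoters the lowest mLN-GF library lay above the highest pLN-GF library. Outside promoters, a peak 152.1 kb from Gata6 (2.28 ± 0.31) and an intronic peak of Meis2 (2.45 ± 0.54) were DARs, and Nr2f1, Nr2f2, Foxl1 and Meis1 had DARs higher in pLN-GF, the last beside others higher in mLN-GF. The counts fell to 14 and 0 without pLN-GF replicate 1 and to 12 and 2 without replicate 3.

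Limb and body wall factors leaned to pLN-GF. Of 132 peaks near 32 genes, 24 (18.2%, against 4.62% of all peaks) near 10 genes were higher in pLN-GF. Tbx15 supplied 8 of these 24 and Tbx18 supplied 5. Another 12 (9.09%, against 8.55%) near 10 genes were higher in mLN-GF, and the median log2 fold change was -0.26. Without the pLN-GF replicates 1 and 3 the pLN-GF count was 11 and 13, and the mLN-GF count 8 and 4. Tbx15, which encodes a T-box factor of limb and trunk mesenchyme, was the clearest case, since all 8 peaks nearest to it were DARs higher in pLN-GF and all 8 were also called in SPF mice. The promoter peak at its inner start site (chr3:99253023-99254040) measured 9.6, 8.2 and 8.1 RPKM in mLN-GF and 53.1 and 52.9 RPKM in pLN-GF (-2.49 ± 0.24, adjusted p = 0.00017). An intronic peak (chr3:99263185-99263937) measured 5.6, 4.3 and 1.4 RPKM against 48.3 and 61.4 (-3.65 ± 0.49, adjusted p = 0.000525). Within 200 kb of the first Tbx15 start site lay 12 peaks, and the 4 peaks nearest to the neighbouring gene Wars2 were not DARs (-1.11 to 0.18).

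**Figure D1:**
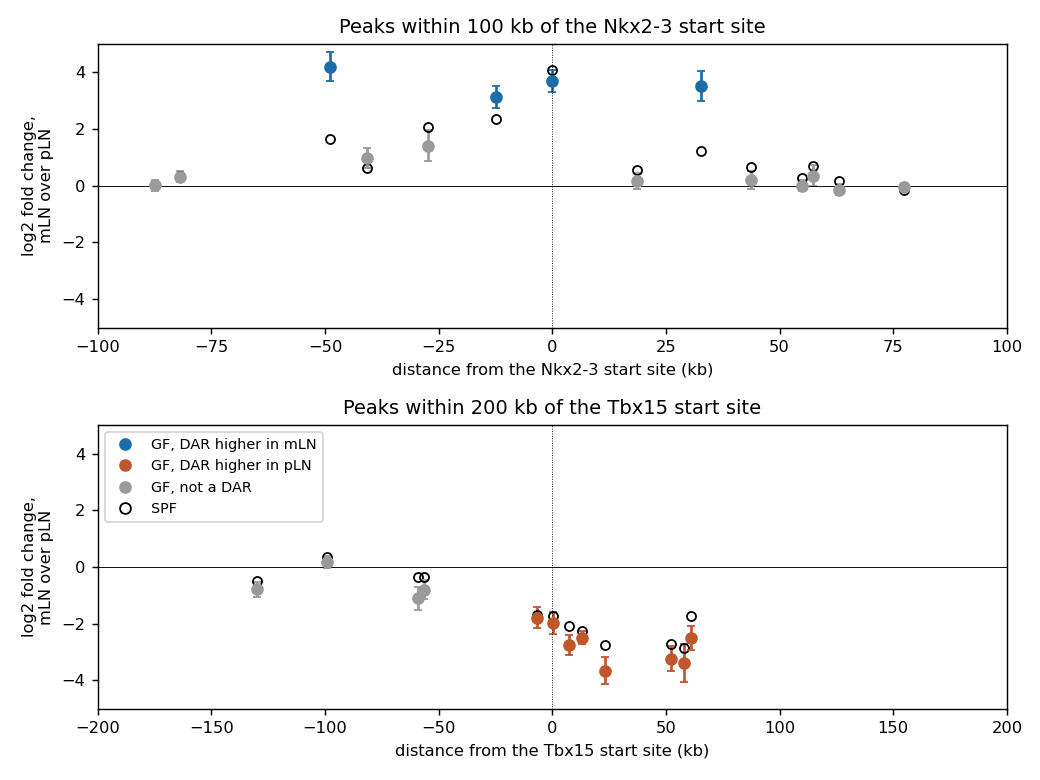
Peaks around the start sites of Nkx2-3 (14 peaks) and Tbx15 (12 peaks), with distance from the start site in kb on the x axis and the log2 fold change of mLN over pLN on the y axis. Filled points are GF values with SE bars, coloured where they are DARs, and open points are SPF values; 4 peaks around Nkx2-3 were higher in mLN-GF and the 8 peaks nearest to Tbx15 were higher in pLN-GF.

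The promoters of En1, Emx2 and Tbx18 were more open in pLN-GF as well. En1, a homeobox gene of dermal mesenchyme, measured 9.4, 2.9 and 1.3 RPKM in mLN-GF and 45.0 and 30.8 RPKM in pLN-GF at its promoter (-3.07 ± 0.52, adjusted p = 0.00179). Emx2, a homeobox gene of limb girdle and urogenital mesenchyme, measured 13.1, 5.6 and 7.5 RPKM against 46.2 and 48.6 (-2.39 ± 0.31, adjusted p = 0.000434). Tbx18 measured 16.3, 15.0 and 17.4 RPKM against 47.4 and 47.7 (-1.50 ± 0.20, adjusted p = 0.000546), and 5 of the 12 peaks nearest to it were DARs, all higher in pLN-GF. Of these 5, 1 was still called without pLN-GF replicate 1, 2 without pLN-GF replicate 3 and 3 without mLN-GF replicate 3. En1 and Emx2 also had DARs higher in mLN-GF elsewhere in their neighbourhood. Irx3, an Iroquois homeobox gene, went the other way, with a peak 32.8 kb past its start at 25.3, 24.8 and 27.7 RPKM in mLN-GF and 1.0 and 1.5 RPKM in pLN-GF. Since the pLN-GF libraries held only 3 reads there, the ratio was 20.0 with a counting interval of 6.61 to 99.3. Of 39 Hox genes, which encode position along the body axis, 20 had a peak, and the others, among them Hoxa9 and Hoxd13, could not be compared. The 36 peaks held 1 DAR (2.78%, against 13.2% of all peaks and 1.71% of promoter peaks). It was an intronic peak of Hoxd3 higher in pLN-GF (-1.67 ± 0.32). That count was 0 without pLN-GF replicate 1 and 3 without mLN-GF replicate 2.

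**Figure D2:**
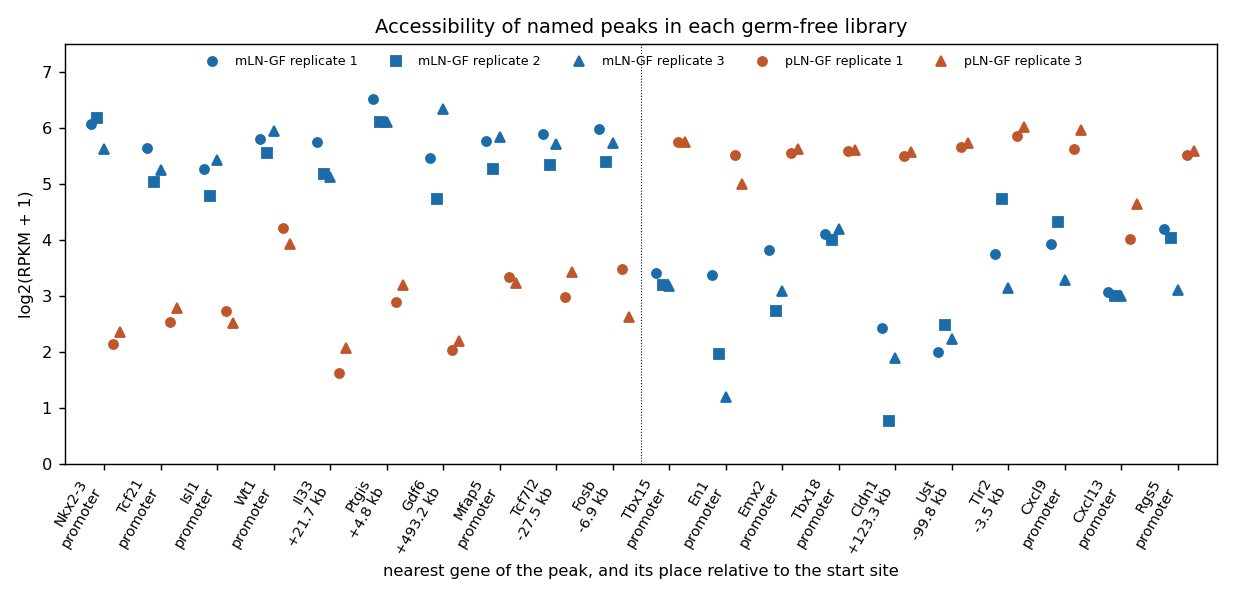
Accessibility of 20 peaks in the 5 GF libraries on the log2(RPKM + 1) scale, with 10 peaks that were more open in mLN-GF on the left and 10 that were more open in pLN-GF on the right. Each point is 1 library (blue mLN-GF, orange pLN-GF). The peaks were chosen among DARs, of which 5586 of 5588 had libraries that did not overlap between the nodes, as here. The mLN-GF library closest to pLN-GF was replicate 2 at Gdf6 and Tlr2.

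Peaks near genes of CD34+ SCs, the adventitial cells around larger vessels and under the capsule, were often DARs higher in mLN-GF. Of 157 peaks near 28 genes, 37 (23.6%, against 8.55% of all peaks) near 22 genes were higher in mLN-GF. Another 5 (3.18%, against 4.62%) near 5 genes were higher in pLN-GF, and the median log2 fold change was 0.28. Leaving out the pLN-GF replicates 1 or 3 gave 22 or 23 DARs on the mLN-GF side and 0 or 1 on the pLN-GF side, which had 2 without mLN-GF replicate 3. Mfap5, a microfibril protein, had a promoter peak at 53.5, 37.5 and 56.5 RPKM in mLN-GF and 9.1 and 8.4 RPKM in pLN-GF (2.34 ± 0.26, adjusted p = 0.000259). An intronic peak of the collagen gene Col14a1 measured 39.9, 25.8 and 35.1 RPKM against 2.7 and 4.2 (2.95 ± 0.34, adjusted p = 0.00028). A peak 30.5 kb from Ackr3, which encodes a scavenging receptor for CXCL12, measured 43.3, 31.9 and 35.2 RPKM against 5.9 and 9.4 (2.15 ± 0.30, adjusted p = 0.000628). Dpp4, Pi16, Ly6c1, Cd55, Has1 and Scara5 were also next to mLN-GF DARs, whereas Cd34 itself had its DAR in the pLN-GF direction. In bulk libraries, more cells of a subset and more open chromatin per cell cannot be told apart.

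Collagen and matrix genes, a list that shares Mfap5, Col14a1, Fbn1 and Fn1 with that of CD34+ SCs, lay nearer to the background. Of 309 peaks near 41 genes, 37 (12%) near 24 genes were higher in mLN-GF and 18 (5.83%) near 9 genes in pLN-GF, against 8.55% and 4.62% of all peaks, with a median log2 fold change of 0.02. The counts were 19 and 5 without pLN-GF replicate 1 and again without replicate 3. A peak 102.8 kb from Postn, the matricellular protein periostin, measured 52.3, 46.9 and 73.2 RPKM in mLN-GF and 10.5 and 9.7 RPKM in pLN-GF (2.37 ± 0.25, adjusted p = 0.000208). Fibronectin (Fn1), versican (Vcan) and tenascin C (Tnc) were among 6 genes with DARs of both directions, and elastin (Eln) and Col12a1 had DARs higher in pLN-GF alone. The Col1a1 and Col3a1 promoters measured 32.4 to 52.9 RPKM over the GF libraries and were not DARs (0.09 ± 0.31 and 0.19 ± 0.34).

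For organizer and marginal reticular cells, 7 of 60 peaks (11.7%, against 4.62% of all peaks) near 3 genes were higher in pLN-GF and 4 (6.67%, against 8.55%) near 2 genes in mLN-GF, and the median log2 fold change was -0.48. Cxcl13, which encodes the B cell chemokine of follicles, supplied 5 of these 7. Its promoter peak measured 7.4, 7.0 and 7.0 RPKM in mLN-GF and 15.2 and 24.1 RPKM in pLN-GF (-1.31 ± 0.36, adjusted p = 0.0234), and a peak 6.4 kb upstream measured 20.2, 27.4 and 24.3 RPKM against 64.4 and 58.0 (-1.32 ± 0.22, adjusted p = 0.0017). Both groups of libraries stood apart at both peaks, but the list had 2 DARs higher in pLN-GF without pLN-GF replicate 1, 1 without pLN-GF replicate 3 and 4 without mLN-GF replicate 3. Of the 5 Cxcl13 DARs, 1, 1 and 2 were still called in these fits. Among T zone reticular cell genes, 7 of 110 peaks (6.36%) near 6 genes were higher in pLN-GF and 4 (3.64%) near Il33, Ccl2 and Dcn in mLN-GF, with a median of -0.15. The pLN-GF share lay close to the 4.62% of all peaks. The pLN-GF side held DARs near the survival cytokine gene Il7, the chemokine genes Cxcl12 and Cxcl9, Clu, the BMP antagonist gene Grem1 and also Il33, and the count on that side was 1 without pLN-GF replicate 1 or replicate 3 and 3 without mLN-GF replicate 3.

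Peaks nearest to marker genes of other cells also differed between the nodes, and the part of such cells in the results was not tested. Of all peaks, 8.55% were higher in mLN-GF and 4.62% in pLN-GF. Mesothelial genes had 19 peaks near 8 genes, of which 8 (42.1%) near Krt19, Upk3b and Wt1 were more open in mLN-GF and none in pLN-GF. Their summed level was 605 to 656 RPKM in the mLN-GF libraries and 319 to 385 RPKM in the pLN-GF libraries, but Msln, Muc16, Lrrn4 and Krt18 had no peak. The mLN-GF count was 5 without pLN-GF replicate 1 and 4 without replicate 3, and 2 pLN-GF DARs were called without mLN-GF replicate 2. An intronic peak of Upk3b, a uroplakin of mesothelium, measured 39.1, 34.3 and 23.2 RPKM in mLN-GF against 5.7 and 8.2 in pLN-GF (2.05 ± 0.50, adjusted p = 0.0138). Perivascular genes had 5 of 54 peaks (9.26%) near Rgs5, Kcnj8, Abcc9 and Acta2 on the pLN-GF side and 1 near Mylk on the mLN-GF side, with a summed level in pLN-GF of 1874 to 2015 RPKM against 1470 to 1641 in mLN-GF. The promoter of Rgs5, a pericyte gene, measured 17.4, 15.4 and 7.6 RPKM in mLN-GF and 44.9 and 47.4 RPKM in pLN-GF (-1.78 ± 0.40, adjusted p = 0.00961), a call that was lost without either pLN-GF library. The pLN-GF count of the perivascular list was 0 without pLN-GF replicate 1 or 3, when 0 and 2 peaks were called on the mLN-GF side, and 3, 9 and 2 without mLN-GF replicates 1, 2 and 3. Blood endothelial genes had 7 of 51 peaks (13.7%) nearest to Cdh5, Erg and Flt1 called on the pLN-GF side. A Cdh5 DAR among them lay 564.5 kb from the start site of that gene. On the mLN-GF side were 2 near Pecam1, and the sums were 1656 to 1666 RPKM in pLN-GF and 1215 to 1382 in mLN-GF. The pLN-GF count was 2 without pLN-GF replicate 1 and 3 without pLN-GF replicate 3, mLN-GF replicate 1 or mLN-GF replicate 3. Lymphatic endothelial genes had 2 of 10 peaks on the mLN-GF side, both near the chemokine scavenger gene Ackr4, and 1 near Prox1 on the pLN-GF side, with sums of 219 to 265 RPKM in mLN-GF and 211 to 229 in pLN-GF. The Ackr4 promoter measured 34.0, 19.6 and 28.7 RPKM against 5.3 and 3.3 (2.41 ± 0.42, adjusted p = 0.0021). Leaving out any GF library but mLN-GF replicate 2 gave lymphatic counts of 1 and 0. Among blood endothelial genes Robo4 and Sox18 had no peak, and neither Pecam1 nor Cdh5 had one in its promoter. Hematopoietic genes had 1 DAR in 19 peaks, 602.5 kb from the start site of Ptprc, and adipocyte genes had 2 in 19. Their summed levels overlapped between the nodes, and epithelial and Schwann cell genes had 0 DARs in 7 peaks.

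**Figure D3:**
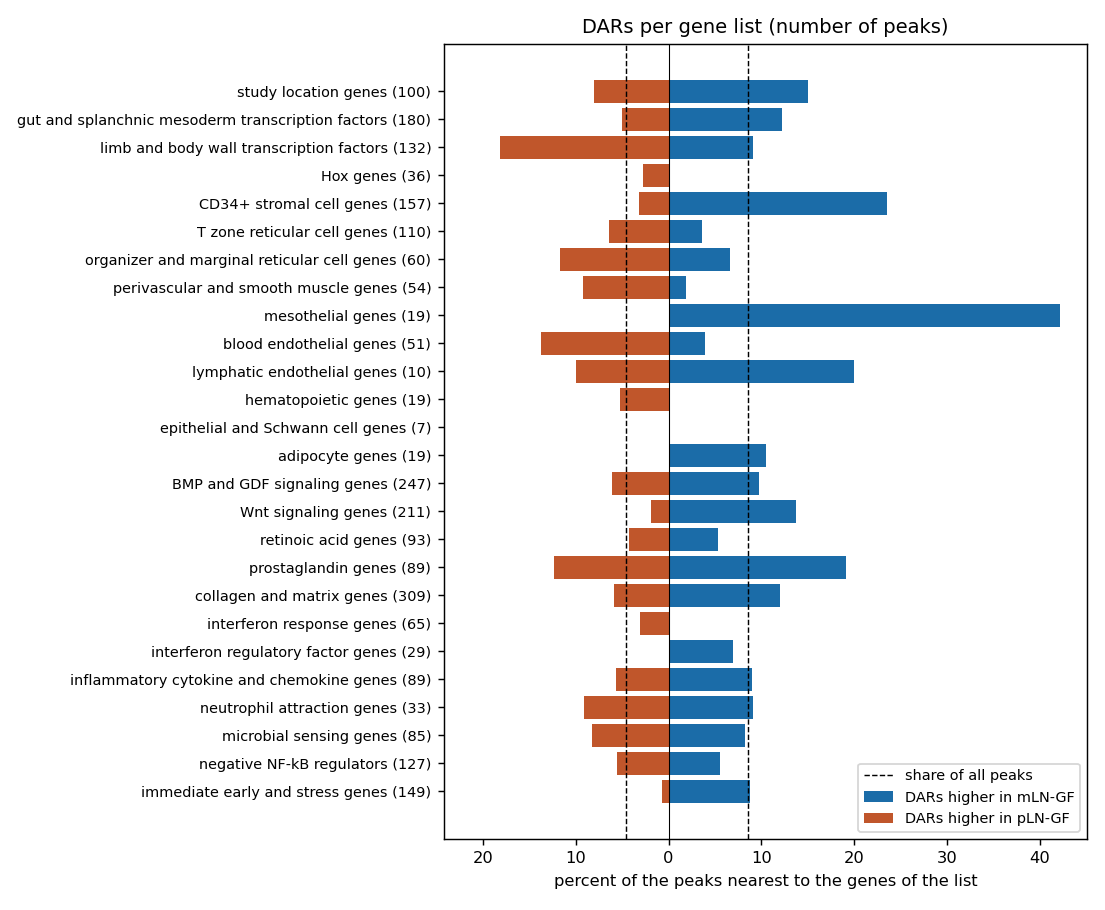
Share of the peaks nearest to the genes of each of 26 lists that were DARs higher in mLN-GF (blue, to the right) or in pLN-GF (orange, to the left), in percent, with the number of peaks in brackets. Dashed lines give the share among all 42424 peaks, 8.55% and 4.62%; mesothelial and CD34+ SC genes reach 42.1% and 23.6% on the mLN-GF side, and limb and body wall factors 18.2% on the pLN-GF side.

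Wnt pathway genes had more DARs on the mLN-GF side, as did the peaks as a whole. Of 211 peaks near 40 genes, 29 (13.7%, against 8.55% of all peaks) near 18 genes were higher in mLN-GF. On the pLN-GF side there were 4 (1.9%, against 4.62%) near 4 genes, while the median log2 fold change of the list was 0.0. The counts were 15 and 0 without pLN-GF replicate 1, 14 and 1 without pLN-GF replicate 3, 17 and 1 without mLN-GF replicate 3 and 29 and 11 without mLN-GF replicate 2. The mLN-GF genes included the ligands Wnt2, Wnt2b, Wnt4, Wnt5a, Wnt10b and Wnt11, the receptors Fzd4, Fzd6, Fzd7, Fzd8 and Ror2, the agonist Rspo3 and the secreted inhibitors Dkk2, Dkk3, Frzb and Sfrp2. The pLN-GF genes were Axin2 and Lef1, both target genes of the pathway, and Ctnnb1 and Tcf7l2, which also had mLN-GF DARs. The Tcf7l2 region shown above lay in a peak of 58.3, 39.6 and 51.8 RPKM in mLN-GF and 6.9 and 9.7 RPKM in pLN-GF (2.46 ± 0.28, adjusted p = 0.00028). A peak 155.5 kb from Dkk2 measured 23.5, 20.3 and 43.6 RPKM against 3.9 and 4.5 (2.47 ± 0.38, adjusted p = 0.00106). At both peaks every mLN-GF library was above both pLN-GF libraries.

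BMP and GDF genes moved both ways. Of 247 peaks near 39 genes, 24 (9.72%) near 14 genes were higher in mLN-GF and 15 (6.07%) near 10 genes in pLN-GF, shares close to those of all peaks, with a median of -0.09. Without pLN-GF replicates 1 and 3, the mLN-GF counts were 12 and 11 and the pLN-GF counts 2 and 5, and without mLN-GF replicate 3 the pLN-GF count was 9. On the mLN-GF side, a peak 68.2 kb from the ligand gene Bmp6 measured 41.3, 28.5 and 50.7 RPKM against 4.4 and 4.9 (2.83 ± 0.30, adjusted p = 0.000202). A peak 493.2 kb from Gdf6, a growth factor of joint and skeletal patterning, measured 43.2, 25.5 and 80.0 RPKM against 3.1 and 3.6 (3.38 ± 0.40, adjusted p = 0.000292). The mLN-GF replicates were spread widely at Gdf6, and the lowest stood above both pLN-GF libraries. The receptor genes split, with Bmpr2 and Acvr2a on the mLN-GF side and Bmpr1b and Acvr1 on the pLN-GF side. Of the antagonist genes, Grem1 and Sostdc1 had DARs higher in pLN-GF and Chrdl1 higher in mLN-GF. Gdf6, Bmp2, Bmper and Id4 had DARs of both directions.

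Prostaglandin genes held many DARs of both directions, where 8.55% of all peaks were higher in mLN-GF and 4.62% in pLN-GF. Of 89 peaks near 19 genes, 17 (19.1%) near 9 genes were higher in mLN-GF and 11 (12.4%) near 9 genes in pLN-GF, and the counts were 12 and 1 without pLN-GF replicate 1 and 7 and 2 without replicate 3, with 7 and 3 on the pLN-GF side without mLN-GF replicates 1 and 3. Ptgis, prostacyclin synthase, had an intronic peak (chr2:167235290, 4.8 kb past its start) at 90.6, 68.2 and 67.6 RPKM in mLN-GF and 6.4 and 8.2 RPKM in pLN-GF (3.20 ± 0.32, adjusted p = 0.000176). Ptgs1, the cyclooxygenase that feeds the pathway, had one at 40.7, 31.0 and 44.3 RPKM against 7.1 and 6.3 (2.35 ± 0.28, adjusted p = 0.000307), and Pla2g4a, which releases arachidonic acid, one at 51.7, 41.4 and 55.0 RPKM against 15.3 and 15.2 (1.62 ± 0.23, adjusted p = 0.000673). Ptgs1 also had a DAR on the pLN-GF side. The synthesis genes Ptgs2 and Ptges had DARs on the mLN-GF side, while Hpgds and the receptor genes Ptgdr, Ptger2 and Ptgfr had theirs on the pLN-GF side. The receptor genes Ptger3 and Ptger4, and also Hpgd and Slco2a1, had DARs of both directions. Retinoic acid genes had 5 of 93 peaks (5.38%) on the mLN-GF side, near Aldh1a1, Crabp1 and Rxra, and 4 (4.3%) on the pLN-GF side, among them peaks near Rarb, Stra6 and the degrading enzyme gene Cyp26b1. These counts were 2 and 0 without pLN-GF replicate 1, 2 and 1 without pLN-GF replicate 3, 3 and 2 without mLN-GF replicate 1 or 3, and 6 and 8 without mLN-GF replicate 2. The promoter of Aldh1a1, a retinaldehyde dehydrogenase, measured 42.9, 37.7 and 41.6 RPKM against 23.8 and 16.4, at the 2-fold limit (1.00 ± 0.21, adjusted p = 0.00557). The promoter of Aldh1a2, the other such enzyme measured, gave 11.9, 13.1 and 12.3 RPKM against 7.3 and 3.4 and was not a DAR (1.16 ± 0.52, adjusted p = 0.156).

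Inflammatory cytokine and chemokine genes had 8 of 89 peaks (8.99%) on the mLN-GF side and 5 (5.62%) on the pLN-GF side, close to the 8.55% and 4.62% of all peaks. The counts were 4 and 0 without pLN-GF replicate 1, 9 and 0 without pLN-GF replicate 3 and 6 and 1 without mLN-GF replicate 3. The Il33 region shown above, near the gene of an alarmin cytokine, measured 52.8, 35.4 and 33.9 RPKM in mLN-GF and 2.1 and 3.2 RPKM in pLN-GF (3.51 ± 0.33, adjusted p = 0.00016), and another Il33 peak was higher in pLN-GF. A peak 6.9 kb before the start site of Ccl2, a monocyte chemokine gene, measured 54.6, 29.0 and 40.7 RPKM against 3.7 and 6.6 (2.79 ± 0.38, adjusted p = 0.000566). A peak 66.8 kb from Tslp, an epithelial and stromal cytokine gene, measured 37.9, 24.7 and 39.7 RPKM against 4.9 and 4.6 (2.58 ± 0.32, adjusted p = 0.000351). Interferon response genes had no DAR higher in mLN-GF and 2 of 65 (3.08%) higher in pLN-GF, including Cxcl9, a count that was 0 without mLN-GF replicate 3 or either pLN-GF library, 1 without mLN-GF replicate 1 and 4 without mLN-GF replicate 2. The Cxcl9 promoter peak measured 14.2, 19.0 and 8.8 RPKM in mLN-GF and 48.2 and 61.6 RPKM in pLN-GF (-1.95 ± 0.58, adjusted p = 0.0344). Its libraries did not overlap, but the call was lost without mLN-GF replicate 1, mLN-GF replicate 3 or either pLN-GF library.

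Microbial sensing genes had 7 of 85 peaks (8.24%) in each direction, against 8.55% and 4.62% of all peaks. All 7 on the mLN-GF side lay near Tlr5 and Tlr2, and the 7 on the pLN-GF side near Tlr2, Tlr3, Tlr4, Tlr6, Nod1, Nod2 and Ripk2. Without pLN-GF replicate 3, 3 were called in each direction, and without replicate 1, 6 and 3. A peak 75.8 kb upstream of Tlr5, the flagellin receptor gene, measured 48.5, 35.1 and 51.3 RPKM in mLN-GF and 5.1 and 2.8 RPKM in pLN-GF (3.23 ± 0.36, adjusted p = 0.000265). The Tlr2 region shown above, upstream of a lipoprotein receptor gene, measured 12.5, 25.7 and 7.8 RPKM in mLN-GF and 57.3 and 63.8 RPKM in pLN-GF (-2.07 ± 0.41, adjusted p = 0.00447). There mLN-GF replicate 2 was again the closest to pLN-GF without reaching it. Negative regulators of NF-kB had 7 of 127 peaks (5.51%) in each direction, with Tnip1 (2.29 ± 0.30) on the mLN-GF side and Tank (-1.94 ± 0.35) on the pLN-GF side at the lowest adjusted p, and Tnip1 also had a DAR on the pLN-GF side, in its promoter. The counts were 4 and 0 without pLN-GF replicate 1, 4 and 1 without pLN-GF replicate 3, 5 and 4 without mLN-GF replicate 3 and 8 and 13 without mLN-GF replicate 2. Immediate early and stress genes had 13 of 149 peaks (8.72%) on the mLN-GF side and 1 on the pLN-GF side, and the mLN-GF count was 10 without pLN-GF replicate 1 and 4 without replicate 3. Among them a peak 6.9 kb from Fosb, an AP-1 subunit gene, measured 62.4, 41.0 and 52.3 RPKM against 10.2 and 5.2 (2.65 ± 0.29, adjusted p = 0.000224). Neutrophil attraction genes had 3 of 33 peaks in each direction and interferon regulatory factor genes 2 of 29, near Irf2 and Irf8, higher in mLN-GF. Without pLN-GF replicates 1 and 3, neutrophil attraction genes had 1 and 0 DARs on the mLN-GF side and 0 and 1 on the pLN-GF side, and interferon regulatory factor genes had none. Without mLN-GF replicates 1 and 3 the former had 1 and 2 on the mLN-GF side and 2 and 1 on the pLN-GF side, and the latter 1 each time.

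The largest changes on the mLN-GF side lay in peaks outside promoters with 0 to 5 reads in the pLN-GF libraries together. The 10 largest on each side were taken among DARs whose libraries did not overlap, each with a different nearest gene. In 4 of the 10 on the mLN-GF side, near Bckdhb, Gucy1a2, Sema3e and Negr1, both pLN-GF libraries had 0 reads. The Bckdhb peak measured 32.4, 16.4 and 42.6 RPKM in mLN-GF and was at least 13.8-fold higher there, against a floor of 3 reads over the pLN-GF group. The same bound was 12.2-fold for Gucy1a2, 18.7-fold for Sema3e, a semaphorin guidance gene, and 9.37-fold for Negr1. These bounds cover counting error only. The largest pLN-GF change was a peak 123.3 kb from Cldn1, a tight junction gene, with 4.4, 0.7 and 2.7 RPKM in mLN-GF and 44.0 and 46.7 RPKM in pLN-GF (-3.84 ± 0.48, adjusted p = 0.000399). The peak holding the Ust region shown above measured 3.0, 4.6 and 3.7 RPKM against 49.8 and 52.4 (-3.46 ± 0.31, adjusted p = 0.000159), with the smallest SE among the 10 largest on that side. Among the 10 promoter DARs with the largest changes on each side, Gpr17 (2.72 ± 0.48), Mpdz (2.83 ± 0.37) and Pram1 (2.91 ± 0.41) were DARs in mLN-GF, and Galnt9 (-2.33 ± 0.56) and Acod1 (-2.08 ± 0.56) were DARs in pLN-GF.

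Some genes gathered many DARs, and the 6 described here were chosen because they had the most. Of all peaks, 8.55% were higher in mLN-GF and 4.62% in pLN-GF. Dst, which encodes the cytoskeletal linker dystonin, had 10 of 23 peaks higher in mLN-GF (1.09 to 2.76) and none in pLN-GF, Rgs6 had 9 of 15 (1.01 to 2.97) and Rbms3 8 of 28 (1.11 to 2.97), also on the mLN-GF side alone. Without pLN-GF replicate 1, 7 of the Dst, 4 of the Rgs6 and 2 of the Rbms3 DARs were still called, and without replicate 3 these numbers were 7, 5 and 3. Without mLN-GF replicate 1, 3 of the Rbms3 DARs were called. In SPF mice 9, 5 and 3 of them were called. Others were the nearest gene of DARs of both directions. Mast4 had 6 DARs on the mLN-GF side and 5 on the pLN-GF side among 22 peaks, Flrt2 had 3 and 7 among 27, and Celf4 had 4 and 5 among 22. The Mast4 DARs lay from -208.0 to 45.2 kb of a start site, but those of Flrt2 from -1473.5 to 267.2 kb and those of Celf4 from -1776.5 to 123.0 kb, all distances being to the nearest protein-coding start site. At Mast4, 3 and 2 of these DARs were still called without pLN-GF replicate 1, and 4 and 0 without replicate 3. At Flrt2 these numbers were 2 and 0, then 2 and 3, and at Celf4 2 and 0, then 1 and 1. Without mLN-GF replicate 3, 2, 4 and 2 of the pLN-GF DARs of Mast4, Flrt2 and Celf4 were called. At Mast4 a peak 52.6 kb upstream measured 68.6, 38.2 and 52.7 RPKM in mLN-GF and 1.6 and 6.8 RPKM in pLN-GF (3.56 ± 0.41), whereas an intronic peak measured 16.0, 27.7 and 20.2 RPKM against 51.6 and 52.4 (-1.28 ± 0.26). Both were DARs, and their libraries were apart as at nearly all DARs, so peaks assigned to 1 gene differed in opposite senses.

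The DNA under the DARs differed in short sequence matches. In the central 200 bases of peaks outside promoters, searched on both strands, the NF-kB motif (GGGNNTTCC) occurred in 14.7% of pLN-GF DARs and 2.6% of mLN-GF DARs, against 6.63% of all 29586 such peaks. The AP-1 motif (TGANTCA) occurred in 30.1% of mLN-GF DARs and 20.0% of pLN-GF DARs, against 18.7%. The CACC box (GGGTGTG) occurred in 10.4% and 2.73%, against 5.49%, and the nuclear receptor motif (AGGTCA) in 19.4% and 13.4%, against 14.1%. On the pLN-GF side were C/EBP (TTGCNNAA), with 17.1% of pLN-GF and 11.3% of mLN-GF DARs against 13.1%, the NFI motif (TTGGC), with 52.3% and 38.7% against 44.1%, and the homeobox core (TAATTA), with 5.73% and 3.32% against 4.18%. The interferon-stimulated response motif (TTTCNNTTT) occurred in 11.9% and 6.63%, against 10.1%. The NKX2 and T-box motifs were near the background, with NKX2 (CACTTAA) in 2.36% of mLN-GF and 2.16% of pLN-GF DARs against 2.27%, and the T-box motif (AGGTGTGA) in 0.433% and 0.315% against 0.402%. The 28 motifs searched were matched separately, so matches of unlike motifs may overlap. The window was 200 bases also in narrower peaks, where it took in flanking DNA. Over whole peaks, whose widths differ, AP-1 occurred in 42.6% of mLN-GF and 36.9% of pLN-GF DARs, against 33.0%. The whole-peak shares of NF-kB were 5.07% and 24.3%, against 13.3%. Median GC content of the windows was 48.5% in mLN-GF DARs, 46.0% in pLN-GF DARs and 48.5% in all, so the pLN-GF windows were richer in A and T, and no test was run on these shares.

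**Figure D4:**
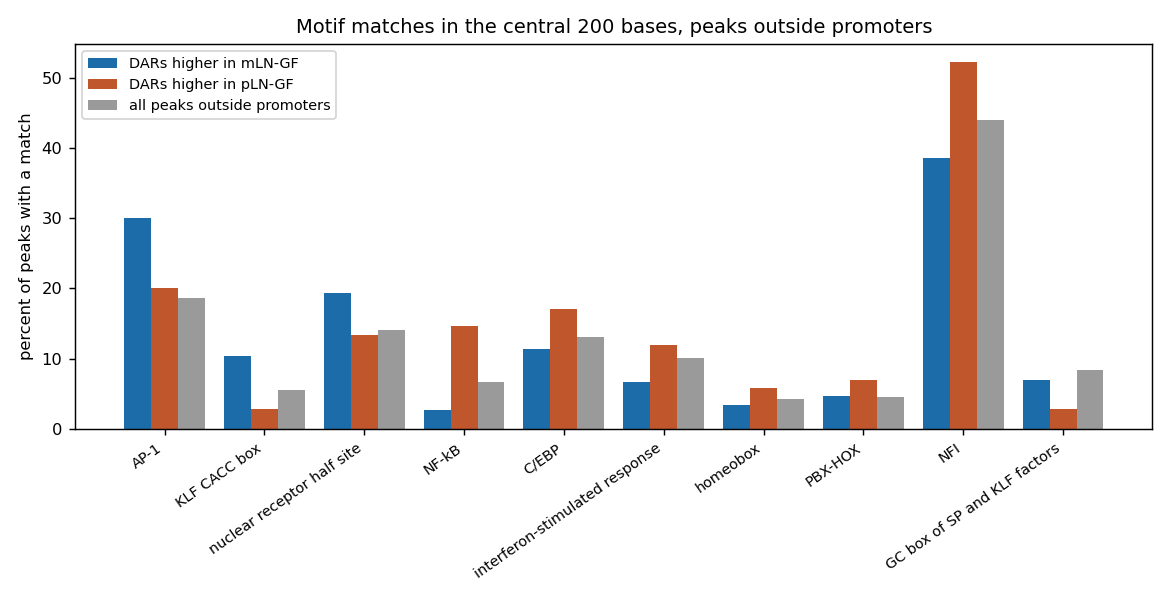
Percent of peaks outside promoters whose central 200 bases hold each of 10 motifs, for DARs higher in mLN-GF (blue), DARs higher in pLN-GF (orange) and all peaks outside promoters (grey). NF-kB matches reach 14.7% in pLN-GF DARs against 2.6% in mLN-GF DARs, and AP-1 matches 30.1% in mLN-GF DARs against 20.0%.

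The same location difference was measured in the 6 SPF libraries, which are separate libraries from those of the GF comparison. All 4 groups entered 1 fit with a common residual variance, so the GF and SPF calls are not independent of each other. Over 42424 peaks the GF and SPF log2 fold changes correlated with r = 0.826. Of the 5588 GF DARs, 5525 (98.9%) had the same sign in SPF mice and 3089 were also SPF DARs, which is 55.3% of the GF DARs and 67.6% of the 4567 SPF DARs (10.8% of peaks). None of the 63 GF DARs with the opposite sign was an SPF DAR. The mLN-GF DARs had a median log2 fold change of 1.83 in GF and 1.27 in SPF mice, and 2123 (58.5%) were called in both, while the pLN-GF DARs had -1.40 and -1.08, and 966 (49.3%) were called in both. The GF values had chosen these peaks, which favours the GF side. In the SPF DARs, chosen on SPF values, the median was 1.42 in SPF and 1.49 in GF mice along the SPF direction. Of the 2499 GF DARs not called in SPF mice, 2436 had the same sign and 1913 moved by at least 1.5-fold there. The Nkx2-3 promoter gave 4.09 in SPF and 3.71 in GF mice, the inner Tbx15 promoter -2.26 and -2.49, and the Il33 region 1.76 and 3.51.

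**Figure D5:**
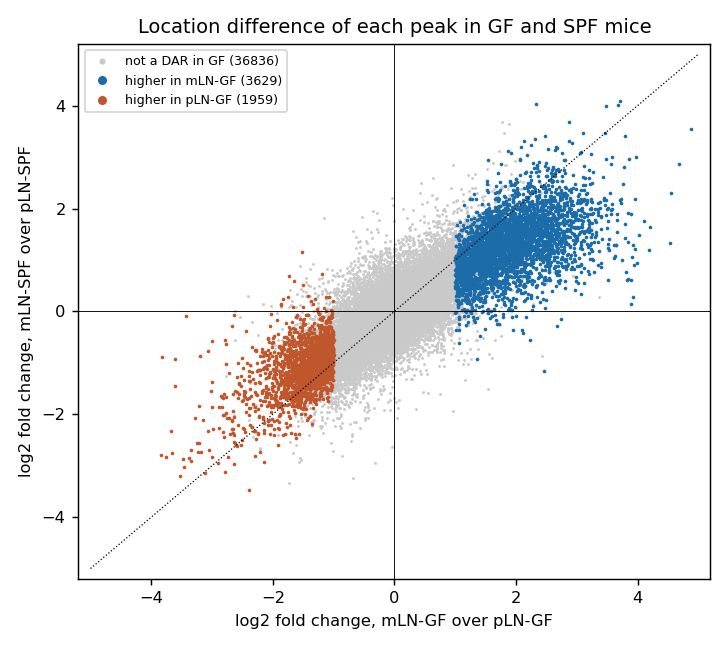
Log2 fold change of mLN over pLN for 42424 peaks, in GF mice on the x axis and in SPF mice on the y axis, with the line of equal change dotted. Blue and orange points are the 3629 and 1959 GF DARs, 5525 of which lie on the same side of 0 in SPF mice; the GF values chose the coloured points.

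Whether the location difference itself differed between GF and SPF mice was tested with an interaction term. No peak passed (limma, smallest adjusted p = 0.887), 1485 peaks (3.5%) had an unadjusted p under 0.05, and voom on the recovered reads gave 0 and 1335. In the limma fit, 764 GF DARs (13.7%) had such an unadjusted p, and 760 of these had the larger difference in GF mice. Those peaks were chosen on GF values. Of the SPF DARs, chosen on SPF values, 370 (8.1%) had one, and 137 of these had the larger difference in SPF mice. Without pLN-GF replicate 1, 1 peak passed. The 95% interval of the interaction reached 0.86 to either side on the log2 scale for the median peak, which leaves room for differences of close to 2-fold. Among peaks named for the lowest interaction p, Adra1b, an adrenergic receptor gene, had a peak at 44.7, 53.6 and 33.5 RPKM in mLN-GF and 2.1 and 1.6 RPKM in pLN-GF. In SPF mice the same peak measured 38.5, 23.9 and 43.8 RPKM in mLN and 11.9, 10.8 and 22.2 RPKM in pLN. The mLN levels overlapped between housings and the pLN levels did not, with an interaction of 2.74 (95% interval 1.67 to 3.80, unadjusted p = 7.48e-05, adjusted p = 0.887). A peak 86.2 kb from Dynlrb2 measured 46.5, 28.4 and 36.2 RPKM against 4.4 and 5.5 in GF mice and 24.0, 24.2 and 32.2 RPKM against 18.0, 19.4 and 18.0 in SPF mice (interaction 2.16, interval 1.34 to 2.98, adjusted p = 0.887). In the other direction, an intronic peak of Frmd4b measured 14.3, 12.6 and 14.6 RPKM against 17.6 and 16.5 in GF mice and 25.0, 28.6 and 42.9 RPKM against 7.7, 6.5 and 8.8 in SPF mice (interaction -2.19, interval -3.11 to -1.28, adjusted p = 0.887).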

How the data were processed

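ATAC-seq of sorted non-endothelial SCs was analysed in 3 mLN-GF and 2 pLN-GF libraries, with 6 SPF libraries for comparison. Per the study's methods, the authors mapped single-end reads to mm10 (GRCm38) using STAR 2.5.3a with unique hits kept and Picard duplicates discarded. Broad peaks from MACS2 were merged over libraries, and the authors normalised counts with DESeq2 1.22 size factors. A shift for the transposase cut was not given in the sources used here. The deposited table holds 1 RPKM value per merged peak and library, with 42434 entries, 10 of them repeats. It also holds the authors' fold changes, adjusted p-values and gene names, which were not used. One deposited column of values belongs to no sample (number of such columns: 1). RPKM times width came in whole steps in 100% of values of each library (within 0.02 of a read), which gave the reads per peak.

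Each peak was given the protein-coding gene with the nearest start site in GENCODE vM21, and 50 peaks on contigs were given none. A nearest gene need not be the one a region acts on. The fit used limma 3.58.1 (R 4.3.3) on log2(RPKM + 1), with 4 group means and a variance trend, so folds of weak peaks are understated. All p-values are two-sided, adjusted by Benjamini-Hochberg over 42424 peaks. The intervals are at 95%, and those from reads cover counting error only. The limma fit was tested on simulated reads with the same spread in all libraries. The 26 gene lists, 28 motifs and the comparison were chosen with earlier results of these data known. Named peaks were the 10 largest DARs in each direction, each with a different nearest gene and with libraries that did not overlap. Others were the 10 largest promoter DARs in each direction, the 6 genes with most DARs and the best peak of each gene named by the study. Up to 3 genes per other list, up to 5 interaction peaks in each direction and marker promoters were also named. Neighbours of Nkx2-3, and the further peaks of Tbx15, Cxcl13 and Tbx18, were added after their values were seen. Lists were described by counts and medians, with no set test. Pseudocounts of 0.5 and 5, a minimum of 5 RPKM, quantile normalisation, no variance trend, voom, a replicate block, GF libraries alone, each library left out, other thresholds, a promoter distance of 2 kb and a gene distance of 50 kb were tried. The labels do not say that a replicate number marks a shared batch, and not every same-numbered pair deviated together, so libraries were not treated as paired. Some genes of these lists are not reported here by name. Drawings were made with matplotlib 3.10.9.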

Additional observations from a re-analysis of the deposited data

How the results depend on the processing

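Without 1 library in turn, the DARs higher in mLN-GF numbered 1973 to 3941 and those higher in pLN-GF 316 to 2372, the lowest values coming from fits with 1 pLN-GF library. The share of GF DARs that had the same sign in SPF mice was 97.8 to 99.5%, the share also called in SPF mice 31.9 to 69.2% (31.9% when mLN-SPF replicate 3 and 32.5% when pLN-SPF replicate 2 was left out), and the interaction count 0 to 1. An adjusted p under 0.01 left 2067 and 566 DARs. The other alternatives gave 3410 to 4218 and 1731 to 2831. Quantile normalisation gave 3410 and 2565, and voom on the recovered reads 3918 and 2741, of which 5334 were DARs of the reported fit with the same sign. The cause was not tested.

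Same-numbered libraries correlated in their deviations at 0.059 and -0.033 in GF, where 2 pLN-GF libraries cannot decide on pairing, and at 0.028, 0.271 and 0.229 in SPF mice, where other pairs gave -0.26 to 0.101. With a replicate block, 4218 and 2831 DARs were called, 5261 of them shared, and the interaction count was 0. Of 178 named DARs, 85 stayed DARs without each GF library in turn and 84 in every one of 19 alternative fits. With 2 pLN-GF libraries and 95% intervals that reached 0.64 to either side on the log2 scale for the median peak, smaller differences lay within the error.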
